A study of Capra hircus with 21 samples.

Results

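The 16-cell embryo and the blastocyst of the goat (Capra hircus) were compared through all genes of a deposited expression table. The comparison used the 3 libraries titled 16-cell and the 3 titled blastocyst, lettered A to C, out of 21 libraries of total RNA that run from the oocyte to the blastocyst. Oocytes had matured and embryos had developed in the animal; the labels name no treatment, breed, age or genotype, and they do not tell how many embryos went into a library or whether the 3 libraries of a stage derive from different animals. Every p-value below is set against the spread among libraries alone, and that spread could be a technical one. Of the 19040 genes in the table, 4253 reached 1 RPKM (reads scaled to the length of the gene and the depth of the library) in at least 3 of the 21 libraries and were tested.

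An embryo first runs on RNA and protein stored by the oocyte. During the cleavage divisions its own genome becomes active and the stored transcripts are degraded, and in ruminants the main wave of this activation falls around the 8-cell to 16-cell stage. The cells then compact into a morula, and the outer cells form an epithelium, the trophectoderm, which seals itself with tight junctions and pumps ions and water inwards to open the blastocoel cavity. The inner cell mass, enclosed by the trophectoderm, gives rise to the pluripotent epiblast and to the primitive endoderm.

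The 6 libraries held between 11.1 M and 17.7 M reads in the listed genes. These were 32.1 to 34.6% of the total reads that the RPKM values imply in 16-cell libraries. In blastocysts A, B and C they were 24.4, 24.9 and 40.5%. The deposited RPKM values carried an offset of 0.01 and had been divided by the full distance from start to stop of each gene, with its introns. Equal read numbers thus give lower values in longer genes, and levels are compared here between stages, not between genes. In a gene of 10 kb the value of 3 reads was 0.00526 to 0.00851 RPKM, the limit that a count of 0 allows; this covers counting error only. Of the reads in listed genes, the mitochondrial genome took 6.87 to 13.2% in 16-cell libraries and 30.8 to 45.8% in blastocyst libraries. Genes at 1 RPKM or more numbered 2508 to 2845 per 16-cell library and 1620 to 2421 per blastocyst library. Libraries of a stage correlated at 0.913 to 0.957 (16-cell) and 0.912 to 0.946 (blastocyst), over genes on the log2 scale, against 0.583 to 0.738 between the stages. A pair of libraries was singled out, each within its stage, 16-cell C and blastocyst B. The former lay at 7.60 on the first principal component, against 35.8 and 40.5 for 16-cell A and B. The latter had the highest mitochondrial share of reads in listed genes and the fewest genes at 1 RPKM. Blastocyst C differed as well, with the largest share of reads in listed genes (40.5%). On the second principal component it lay at -29.2, against -46.0 and -62.0 for blastocysts A and B. Where a named call on the RPKM scale ended without 16-cell C or without blastocyst B, the value without that library is given. The fit on RPM described further on was not repeated without single libraries. In bulk samples such as these, fewer cells of a type and less RNA per cell cannot be told apart.

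**Figure D1:**
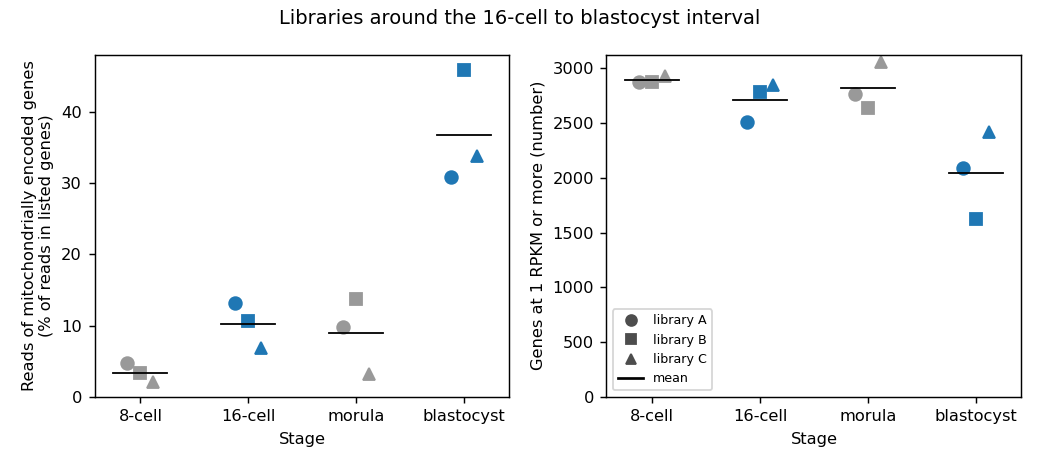
Share of reads from the mitochondrial genome (left, percent of reads in listed genes) and number of genes at 1 RPKM or more (right) in each library of the 8-cell, 16-cell, morula and blastocyst stages; symbols mark the letters A to C, lines the stage means, and blue the 2 stages compared. The 3 blastocyst libraries, at 30.8% or more, lie above the 3 16-cell libraries, at 13.2% or less, and have the lower numbers of genes.

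Stages were compared on log2(RPKM + 1) with limma, and a call required an adjusted p (Benjamini-Hochberg, over all genes tested) under 0.05 together with a log2 fold change, blastocyst over 16-cell, of 1 or more in size. This scale understates the change of low genes. Of the 4253 genes tested, 1735 (40.8%) were called, 503 (11.8%) higher and 1232 (29.0%) lower in blastocysts, and the median gene stood at -0.45. Nuclear scaling took the library size from listed nuclear genes alone, without mitochondrial reads and without reads outside the listed genes. With it the median was -0.26 and 910 genes were higher against 1004 lower, or 47.5% of calls higher against 29.0%. Quantile normalization gave 850 higher and 742 lower with a median of -0.04, and median-ratio scaling gave 844 and 1050. None of the 1735 calls took the opposite sign in a call under any of these scalings. The balance between rises and falls thus followed the scaling, and the counts of gene lists on RPKM below are given under nuclear and quantile scaling too. Counts on RPM, a scale described further on, were not fitted under these scalings. The shares over all genes tested, beside which those counts stand, were 21.5% higher and 23.7% lower under nuclear scaling and 20.0% higher and 17.4% lower under quantile normalization.

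Called genes were sorted by whether they were present at each stage, with presence set at a mean of 1 RPKM. This limit stands for more reads in longer genes, so a gene under it was not necessarily absent. DAB2, a gained gene that spans 59.0 kb, had 727, 453 and 941 reads in 16-cell libraries A, B and C. ATXN7L3B, a kept gene that spans 0.294 kb, had 63, 165 and 77 reads there. Lost transcripts, called lower and under 1 RPKM in blastocysts, numbered 702; 51 of them had fewer than 3 reads in every blastocyst library. Another 530 were lower but present at both stages. Gained transcripts, called higher and under 1 RPKM at the 16-cell stage, numbered 223, of which 10 had fewer than 3 reads in every 16-cell library, and another 280 were higher and present at both stages. Kept transcripts, present at both stages with the 95% interval of the log2 fold change inside -1 to 1, numbered 229. Of the 223 gained transcripts, 131 were at 1 RPKM or more in fewer than 3 libraries outside the blastocyst stage. These had reached the limit for testing through the stage where they were high, so their calls are a description and are printed with no p-value. Among the genes named below they are AMOTL2, CA2, DAB2, EPCAM, LRP2, PLAU, POU5F1, SLC1A1, SLC35G1, SLC7A7, SPARC and SPC24. In the same way DLX5, SLC12A2, TFAP2C, TUBA4A and VIM needed their 16-cell libraries to be tested. The other 2289 genes were neither called nor held within that interval, so for them neither a change nor its absence was shown. The libraries of the stages did not overlap for 600 genes that were higher (14.1%) and 1968 that were lower (46.3%).

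**Figure D2:**
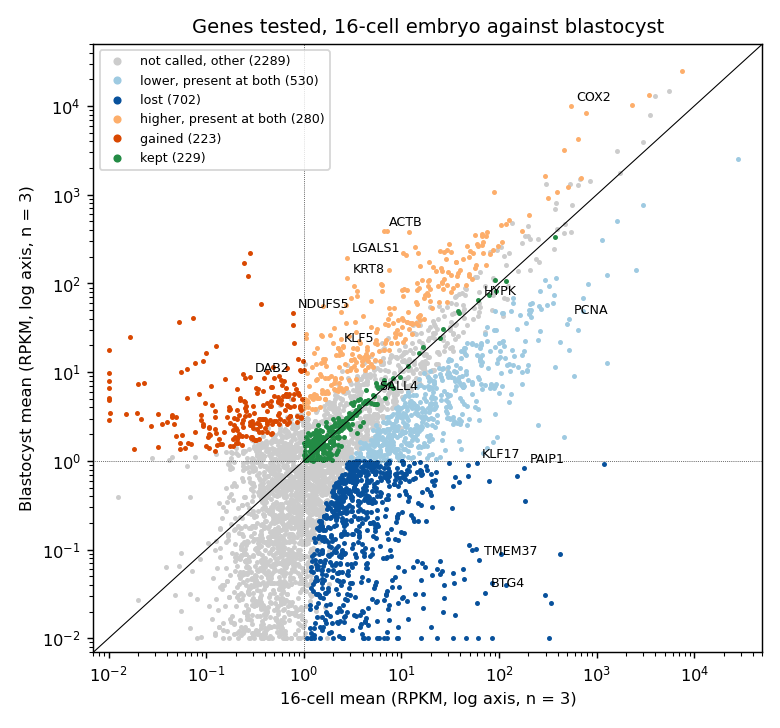
Mean RPKM in blastocysts against mean RPKM at the 16-cell stage (log axes, n = 3 libraries per stage) for the 4253 genes tested, coloured by class; dotted lines mark 1 RPKM and the diagonal marks equal means. The 702 lost genes fill the area under the horizontal line and the 223 gained genes the area left of the vertical line, with the 229 kept genes along the diagonal.

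The 3 oocyte transcripts described first were still measurable at the 16-cell stage and were close to gone in blastocysts. BTG4, an adaptor that brings the deadenylase complex to maternal mRNA, stood at 49.4, 37.5 and 130 RPKM in 16-cell libraries A, B and C and at 0.0171, 0.0179 and 0.0630 RPKM in the blastocyst libraries. Its 2 groups were far apart, with 16-cell C the highest library. On the log2 scale BTG4 fell by 5.94 (SE 0.73, adjusted p = 2.00e-06). GDF9, a growth factor secreted by the oocyte, stood at 7.05, 9.71 and 57.6 RPKM and then at 0.0456, 0.0453 and 0.0671 RPKM, a log2 fold change of -4.03 (SE 0.65, adjusted p = 3.91e-05). BMP15, its partner in the ovary, had 16.1, 15.7 and 46.0 RPKM and then no read in blastocyst A and 0.0657 and 0.0965 RPKM in B and C. In each of these 3 genes 16-cell C held the highest level.

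PAIP1, which binds the poly(A)-binding protein and promotes translation, had the largest fall among the genes with a symbol whose libraries did not overlap and whose mean reached 10 RPKM. It went from 186, 84.4 and 270 RPKM to 0.578, 0.353 and 1.54 RPKM (log2 fold change -6.54, SE 0.92, adjusted p = 9.24e-06). TBPL1, a relative of the TATA-binding protein known from germ cells, fell by 5.66 on the log2 scale, from 66.1, 62.8 and 108 RPKM to 0.469, 0.149 and 1.16 RPKM. IFIT5, of a family of interferon-induced RNA-binding proteins, fell by 5.25 and had 7, 2 and 1 reads in the blastocyst libraries, the last 2 of them under the limit of 3 reads. Of 21 tested members of a list of oocyte and maternal-effect genes, 17 fell and none rose, with a median of -2.37. Among them were KPNA7 (-3.51), an oocyte importin, MOS (-3.27), the kinase that holds the mature egg in arrest, and the zona pellucida genes ZP2 (-2.92) and ZP4 (-1.95). Under nuclear scaling 17 of 20 fell, and under quantile normalization 15 of 21 fell and 1 rose. Without 16-cell C and morula C, which stood apart in the same direction, 13 of 21 fell and the median was -1.89. This list and the lists below were chosen with earlier results of these data known, so their counts describe the genes and do not test a theme.

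Of 1144 genes called higher from the 8-cell stage to the morula, 91 (7.95%) were lost by the blastocyst, a smaller share than the 702 (16.5%) among all genes tested. The genes described next had large falls among those called higher by the morula. KLF17, a Kruppel-like factor known from early embryos (chromosome 3, 18835386 to 18836815), stood at 73.0, 82.1 and 22.4 RPKM in the 16-cell libraries, against a mean of 1.57 RPKM at the 8-cell stage, and at 0.474, 0.0837 and 2.25 RPKM in blastocysts. It was highest in 16-cell B and lowest in blastocyst B, and the groups did not overlap. Its log2 fold change was -4.92 (SE 0.47, adjusted p = 9.45e-08). TMEM37, a transmembrane protein, went from 83.3, 68.4 and 35.4 RPKM to 0.0594, 0.0160 and 0.152 RPKM, a log2 fold change of -5.80 (SE 0.47, adjusted p = 9.42e-09), after a mean of 2.20 RPKM at the 8-cell stage. The last 13, 2 and 29 reads of TMEM37 in the blastocyst libraries replaced 24774, 15814 and 8852 reads at the 16-cell stage. RHEBL1, a small GTPase related to RHEB, fell by 4.68 on the log2 scale, from 61.5, 54.8 and 29.0 RPKM to 0.656, 0.412 and 1.65 RPKM. PNRC1, a nuclear receptor coregulator, fell by 5.03, from 84.6, 91.7 and 50.2 RPKM to 1.91, 0.351 and 1.97 RPKM, and stayed present, just above the limit.

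GABPA, an ETS-family transcription factor, stood at 28.4, 18.7 and 7.85 RPKM and then at 0.294, 0.0780 and 1.07 RPKM (log2 fold change -3.60, SE 0.33, adjusted p = 4.31e-08). H2AFZ, the histone variant H2A.Z, went from 1277, 728.8 and 435 RPKM to 80.2, 53.6 and 159 RPKM, a log2 fold change of -3.05 (SE 0.54, adjusted p = 9.43e-05). H2AFZ thus remained at a mean of 97.6 RPKM in blastocysts. Of 11 tested genome activation factors, 6 fell and 2 rose, with a median of -1.10; under nuclear scaling 3 fell and 3 rose, as under quantile normalization, and the median stayed negative at -0.60 and -0.42. The risers were KLF5 and POU5F1, described with the lineage genes.

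Among stress-response transcripts, a pair that was high at the 16-cell stage fell. DNAJB9, an endoplasmic reticulum chaperone, stood at 189, 175 and 104 RPKM at the 16-cell stage, after a mean of 6.47 RPKM at the 8-cell stage, and at 11.8, 1.89 and 20.8 RPKM in blastocysts. DDIT3, a transcription factor induced by endoplasmic reticulum stress, stood at 169, 284 and 142 RPKM and then at 11.8, 6.46 and 18.1 RPKM. On the log2 scale DNAJB9 fell by 4.03 (adjusted p = 3.60e-06) and DDIT3 by 3.96 (adjusted p = 1.12e-05). Among 31 heat shock and chaperone genes 9 fell (29.0%) and 3 rose (9.68%), shares near the 29.0% and 11.8% of all genes tested, with a median of -0.31. Under nuclear scaling 5 of 32 fell, 8 rose and the median turned to 0.32. Under quantile normalization 3 of 31 fell, 10 rose and the median was 0.03. Without blastocyst B 5 fell and 5 rose. HSPE1, a mitochondrial co-chaperone, rose by 1.92, and HSP90AA1, the inducible cytosolic HSP90, rose by 1.12, from 67.3, 67.6 and 88.3 RPKM to 130, 168 and 193 RPKM. Without blastocyst C the rise of HSP90AA1 was 0.99, short of a call.

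The fates of transcripts were then read by their earlier course, using the 8-cell and morula libraries. Their values do not enter the fold change of blastocysts over 16-cell embryos, but they share the model's estimate of the spread and the limit for testing. From 8-cell to morula 2071 genes (48.7%) were called, 1144 (26.9%) higher and 927 (21.8%) lower. Of the 1144 genes that had risen, 299 (26.1%) rose further from 16-cell to blastocyst and 294 (25.7%) fell, with a median log2 fold change of 0.08, against 11.8% and 29.0% of all genes tested. Their classes were 91 lost, 203 lower but present, 96 kept, 228 higher and present at both, and 71 gained. Under nuclear scaling 483 of these genes rose and 253 fell. Among the 927 genes that had fallen by the morula, 409 (44.1%) fell from 16-cell to blastocyst and 5 (0.539%) rose, with a median of -0.88, and 300 were lost. The 2182 genes called in neither direction from 8-cell to morula contributed 311 lost and 151 gained transcripts, with a median of -0.39.

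The 5 genes that fell by the morula and rose again to the blastocyst are named here after their values were seen. VPS26A, a retromer subunit, was the gained one: it had 0.447, 0.285 and 0.887 RPKM at the 16-cell stage and 4.85, 4.16 and 6.66 RPKM in blastocysts. LGALS3, a galactose-binding lectin, averaged 5.43 RPKM in 8-cell embryos, 1.86 in 16-cell embryos, 1.91 in morulae and 26.0 in blastocysts. FABP3, a fatty acid-binding protein, rose by 2.04 on the log2 scale, but 16-cell C (20.4 RPKM) lay above blastocyst A (15.5 RPKM). GDF3, a growth factor of the TGF-beta family, also overlapped between the stages, and the remaining gene, ENSCHIG00000011322, has no symbol in the table. Without 16-cell C and morula C this group held 19 genes, and under nuclear scaling 15.

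**Figure D3:**
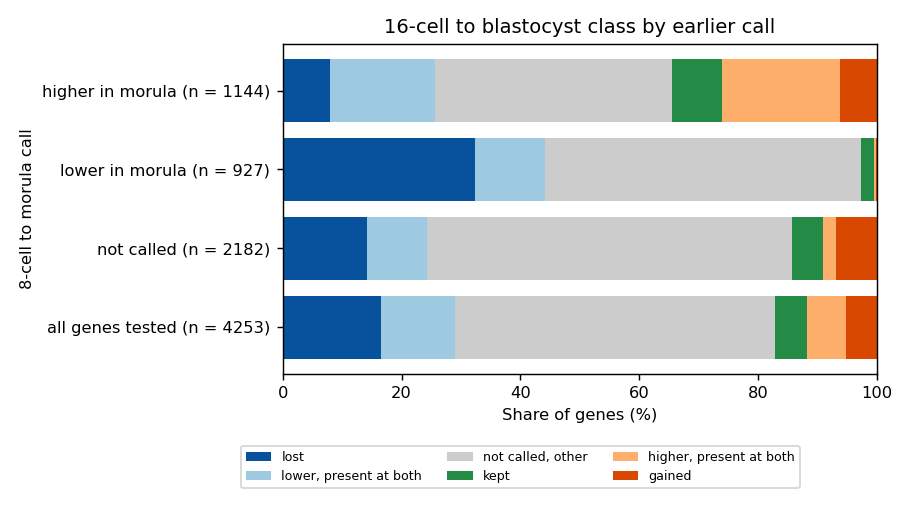
Shares (percent) of the 16-cell to blastocyst classes among genes called higher, called lower or not called from 8-cell to morula, and among all genes tested; bar segments are the classes and n gives the genes. Of the 927 genes lower in morulae, 300 were lost and 1 was gained, while the 1144 genes higher in morulae split into 299 that were higher and 294 that were lower in blastocysts.

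**Figure D4:**
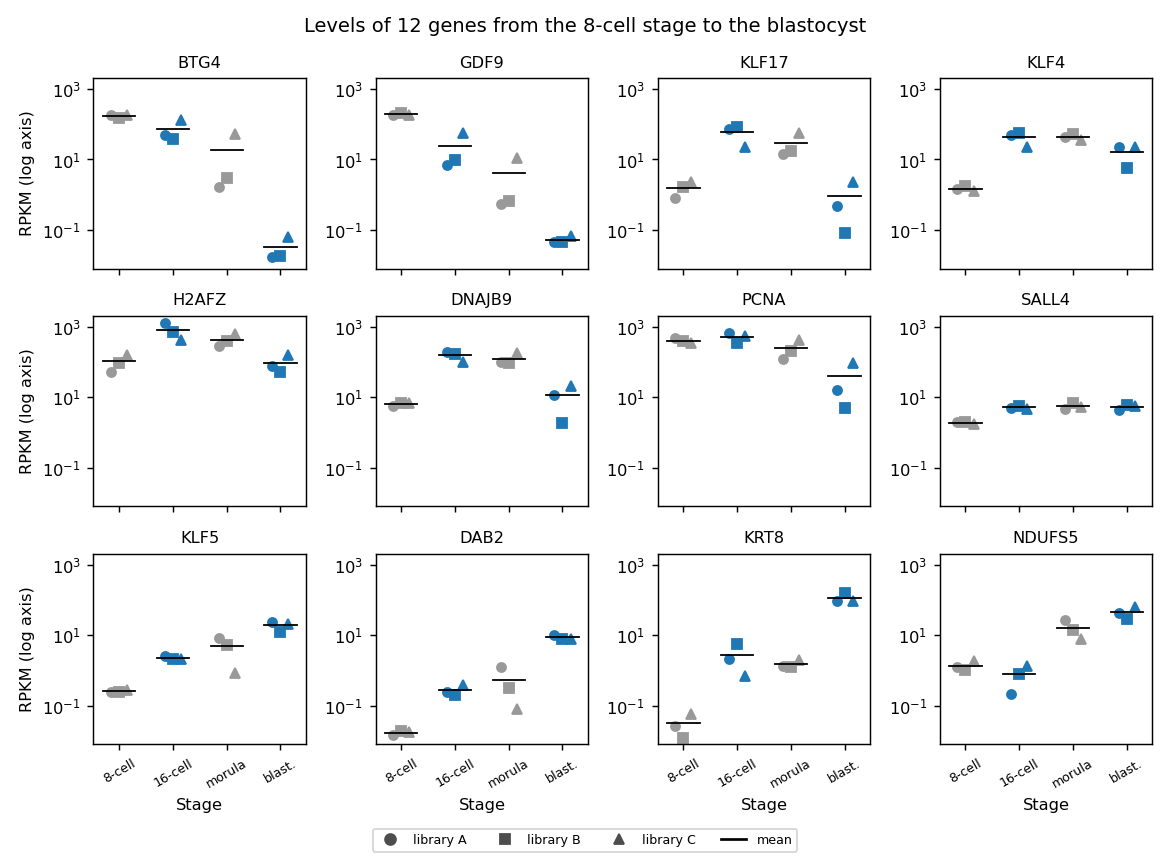
RPKM (log axis) of 12 genes in each 8-cell, 16-cell, morula and blastocyst library, with the stage mean as a line and the letters A to C as symbols; the 16-cell and blastocyst libraries are blue. BTG4 and GDF9 decline from the 8-cell stage, KLF17 and DNAJB9 are high at the 16-cell and morula stages only among the 4 stages drawn, SALL4 is level from the 16-cell stage on, and DAB2 and KRT8 are highest in blastocysts.

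Factors of pluripotency and the inner cell mass did not move as 1 group: of 12 tested, 5 fell and 2 rose, with a median of -0.52. Under nuclear scaling 3 fell and 3 rose, and under quantile normalization 2 fell and 3 rose. SALL4, a zinc-finger factor needed by the inner cell mass, was kept, at 4.97, 5.79 and 4.81 RPKM in 16-cell and 4.33, 6.17 and 5.79 RPKM in blastocyst libraries (log2 fold change 0.05, 95% interval -0.39 to 0.48). The libraries of the stages overlapped and SALL4 varied little among all 6. POU5F1, which encodes OCT4 and is the best known regulator of pluripotency, had 0.112, 0.249 and 0.542 RPKM and then 2.30, 1.27 and 1.79 RPKM. Every blastocyst library lay above every 16-cell library, and its log2 fold change was 1.10 (SE 0.21). The rise of POU5F1 fell just short of 1 without 16-cell A (0.99) or without blastocyst A (0.96). GDF3 had 0.628, 0.319 and 4.06 RPKM and then 4.08, 1.35 and 9.42 RPKM, a log2 fold change of 1.17 (adjusted p = 0.0313); the call was lost on leaving out 16-cell A or B or blastocyst A or C, with values from 0.64 to 1.16.

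KLF4, a reprogramming factor, stood at 50.8, 57.4 and 23.2 RPKM and then at 22.4, 5.75 and 22.3 RPKM. Its groups touched closely, 23.2 in 16-cell C against 22.4 in blastocyst A, and its log2 fold change was -1.44 (SE 0.39, adjusted p = 0.00378). Without blastocyst B it was -0.84, and under nuclear scaling -0.79 (adjusted p = 0.0593), so the call of KLF4 depended on both; under quantile normalization it was -0.75. PRDM14, a regulator of germ-cell and naive pluripotency, fell by 1.20, from 4.27, 4.16 and 1.96 RPKM to 0.743, 0.998 and 0.910 RPKM, and by 0.83 under nuclear scaling and 0.52 under quantile normalization, below the size needed. SOX15, an SRY-box factor, fell by 1.45, from 5.79, 10.3 and 2.73 RPKM to 1.76, 0.668 and 2.05 RPKM, and by 0.77 under quantile normalization, short of a call. MYC, a general growth regulator, stood at 28.2, 24.4 and 8.98 RPKM and then at 0.124, 3.29 and 0.192 RPKM, with blastocyst B alone above 1 RPKM in its group (log2 fold change -3.44, adjusted p = 0.000163).

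Several lineage regulators span long genes and stayed under the limit of 1 RPKM in 3 libraries. For these the values were also fitted as RPM, reads scaled to the depth of the library without division by the gene span, with at least 1 RPM in at least 3 libraries and the same model and call rule. On that scale 10384 genes were tested and 50.8% were called, 14.4% higher and 36.4% lower. The fit on RPM was not repeated under nuclear or quantile scaling, so whether its counts followed the scaling was not tested. Of the genes described by RPM or reads below, DSG2, FASN, PTGS2, RSPO3, TDG and TEAD4 needed their blastocyst libraries to be tested on that scale and DSC3 its 16-cell libraries, so their rises and falls are likewise a description. NANOG, a core pluripotency factor, had 4.37, 3.42 and 4.14 RPM at the 16-cell stage and 0.0221, 2.89 and 0.908 RPM in blastocysts, the first of these from a single read. On the log2(RPM + 1) scale NANOG fell by 1.34 (SE 0.34, limma adjusted p = 0.00184), with blastocyst A the lowest library. Whether the call of NANOG held without blastocyst A or under nuclear scaling was not tested. ESRRB, an orphan nuclear receptor of naive pluripotency, rose by 3.07 on the log2(RPM + 1) scale, from 2.13, 6.06 and 0.582 RPM to 23.7, 24.8 and 31.6 RPM. SOX2, the partner of OCT4, was below both limits, at 0.801, 0.663 and 0.421 RPKM and then 0.583, 0.484 and 0.393 RPKM, with 13 to 39 reads per library.

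Genes of the trophectoderm and its epithelium included large gains. KRT8, a keratin of simple epithelia (chromosome 5, 26768248 to 26776612), went from 2.13, 5.56 and 0.703 RPKM to 91.6, 160 and 91.9 RPKM. The lowest blastocyst library lay well above the highest 16-cell library, and the ratio of the means was 41.1. KRT8 rose by 5.09 on the log2 scale (SE 0.32, adjusted p = 2.57e-10). ENSCHIG00000023628, a gene without a symbol at 26727515 to 26731246 on the same chromosome, went from 0.357, 0.463 and 0.0245 RPKM to 152, 301 and 213 RPKM, a log2 fold change of 7.41. KLF5, a Kruppel-like factor required for the trophectoderm and also counted among the activation factors, rose by 2.57 (SE 0.37, adjusted p = 9.77e-06), from 2.58, 2.09 and 2.13 RPKM to 23.6, 12.7 and 20.4 RPKM.

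Of the 27 trophectoderm factors found in the table, 5 were tested on the RPKM scale, where KRT8 and KLF5 rose and BMP4 and DLX5 fell. Under nuclear scaling and under quantile normalization 2 of 5 rose and 1 fell. DLX5 fell by 1.07, and the call was lost under nuclear scaling (-0.76) and quantile normalization (-0.50), without 16-cell C (-0.68) and without blastocyst B (-0.96). On the log2(RPM + 1) scale 21 were tested, 11 rose and 5 fell, and the median was 1.30 against -0.57 for all genes on that scale. Of the 21, 4 reached 1 RPM in fewer than 3 libraries outside the blastocyst stage, TEAD4 and KRT19 among them, and of the other 17 genes 8 rose and 5 fell. GATA3, a zinc-finger regulator of the trophectoderm, had 1.54, 1.73 and 10.1 RPM and then 29.4, 54.8 and 18.6 RPM, and rose by 2.91 (limma adjusted p = 0.000495). GATA2, its relative, rose by 2.74, from 0.703, 1.51 and 2.44 RPM to 20.6, 21.8 and 7.86 RPM. Both were lowest in blastocyst C within their stage. TFAP2A, an AP-2 transcription factor, rose by 3.14 on the log2(RPM + 1) scale, from 0.938, 0.201 and 3.23 RPM to 18.6, 27.0 and 11.2 RPM. TEAD4, the DNA-binding partner of YAP1 that starts the trophectoderm program, rose by 1.55, from 3, 23 and 0 reads to 117, 98 and 115 reads.

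CDX2, a homeobox factor of the trophectoderm, was under both limits: 0, 0 and 2 reads at the 16-cell stage and 59, 77 and 13 reads in blastocysts, or 0.252, 0.261 and 0.0784 RPKM in the latter. All 3 blastocyst libraries of CDX2 lay above the 16-cell libraries, which were at or below 3 reads, and no test was made. KRT19, another keratin of simple epithelia, differed within the blastocysts, at 0.357, 18.1 and 0.244 RPKM in A, B and C, after 0.121, 0.107 and 0.0580 RPKM. Blastocyst B thus held nearly all KRT19 reads. TFAP2C, an AP-2 factor of early trophectoderm, stood at 1.67, 1.79 and 0.9001 RPKM and then at 0.468, 0.0945 and 0.437 RPKM; its log2 fold change of -0.87 did not reach the size needed, although it did without 16-cell C (-1.05), while on the log2(RPM + 1) scale it was -1.90 (adjusted p = 4.45e-05). BMP4, a growth factor, fell by 2.64, from 8.94, 5.70 and 5.82 RPKM to 0.241, 0.132 and 0.340 RPKM.

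Of 22 primitive endoderm genes found in the table, none averaged 1 RPKM or more at the 16-cell stage and 3 did so in blastocysts. That limit stands for more reads in longer genes. The 3 members tested on the RPKM scale rose and were gained, and all 3 also rose under nuclear scaling and quantile normalization. Each reached the limit for testing through its blastocyst values, so their number is no support in itself. DAB2, an endocytic adaptor (chromosome 20, 34991781 to 35050807), went from 0.251, 0.203 and 0.381 RPKM to 10.3, 7.90 and 8.03 RPKM, a log2 fold change of 2.92 (SE 0.18). LRP2, the endocytic receptor megalin, rose by 1.45, from 0.315, 0.196 and 0.478 RPKM to 3.22, 2.03 and 2.74 RPKM. SPARC, a matrix protein, rose by 1.41, from 0.117, 0.116 and 0.0908 RPKM to 2.93, 1.26 and 1.90 RPKM. In all 3 genes every blastocyst library was above every 16-cell library. Without blastocyst B 1 member was tested and called, since LRP2 and SPARC then no longer reached the limit for testing.

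On the log2(RPM + 1) scale 5 of 14 primitive endoderm members rose and 3 fell; of the 11 members that did not need the blastocyst libraries to be tested there, 3 rose and 3 fell. RSPO3, a secreted enhancer of WNT signalling, was among the rises, from 0, 0 and 2 reads to 742, 882 and 442 reads. PDGFRA, a receptor marking early primitive endoderm in the mouse, fell by 2.56 on that scale, from 8.71, 26.3 and 6.05 RPM to 1.81, 1.51 and 0.284 RPM. The list therefore held members that moved in opposite directions.

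Cell junction and polarity genes were mostly long and few passed the RPKM limit. Of 13 tested, 3 rose and 2 fell, with a median of 0.57, and 6 rose and 2 fell under nuclear scaling, 7 and 2 under quantile normalization, and 5 and 2 without blastocyst B. Of these 13, 3 needed their blastocyst libraries to be tested, AMOTL2 and EPCAM among them. AMOTL2, an angiomotin that links junctions to Hippo signalling, rose by 2.03, from 0.0229, 0.0732 and 0.0377 RPKM to 3.43, 2.97 and 3.45 RPKM. EPCAM, an epithelial adhesion molecule, rose by 1.62, from 0.208, 0.244 and 0.298 RPKM to 4.12, 0.959 and 4.60 RPKM, with blastocyst B the lowest of its stage. GJC1, the gap junction protein connexin 45, fell by 2.77 and CLDN12, a claudin, by 2.00; both were highest in 8-cell embryos among the stages from 8-cell to blastocyst, at means of 23.0 and 20.8 RPKM.

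On the log2(RPM + 1) scale 13 of 34 junction and polarity genes rose and 10 fell, and of the 31 that did not need their blastocyst libraries to be tested 10 rose and 10 fell. PKP2, a desmosome plaque protein, rose by 3.24, from 0.410, 0.453 and 0.861 RPM to 11.2, 9.25 and 24.97 RPM. TJP1, the tight junction scaffold ZO-1, rose by 2.11, from 7.95, 14.3 and 10.4 RPM to 50.03, 49.8 and 47.1 RPM, and its blastocyst libraries differed little. PRKCI, an atypical protein kinase C of apical polarity, rose by 2.60, and the desmosomal cadherin DSG2 rose by 1.85. Against these, CXADR, a junctional adhesion protein, fell by 3.17 and the desmosomal cadherin DSC3 fell by 3.68 on the log2(RPM + 1) scale, the latter from 1217, 338 and 481 reads to 1, 1 and 11 reads.

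Few ion and water transport genes of the blastocoel could be tested. Of 5 tested on the RPKM scale 1 rose and 1 fell, 2 rose and none fell under nuclear scaling and under quantile normalization, and without blastocyst B 4 were tested and none was called. As log2(RPM + 1), 2 of 12 rose (16.7%) and 4 fell (33.3%), near the 14.4% and 36.4% of all genes on that scale. CA2, a carbonic anhydrase, went from 0.0255, 0.172 and 0.0928 RPKM to 3.90, 5.69 and 4.05 RPKM (log2 fold change 2.33, SE 0.12). CA2 was under 1 RPKM in every library outside the blastocyst stage, and it was not tested on leaving out any blastocyst library. ATP1B1, the beta subunit of the sodium pump, stood at 0.857, 0.656 and 1.02 RPKM and then at 0.311, 0.132 and 0.370 RPKM, a log2 fold change of -0.54 that was not called, while on the log2(RPM + 1) scale it fell by 1.64 (adjusted p = 0.00959). SLC12A2, a sodium, potassium and chloride cotransporter, fell by 1.01, a size just over the limit that was missed under nuclear scaling (-0.96) and quantile normalization (-0.62) and without 16-cell A, 16-cell B or blastocyst B (-0.93 to -0.99).

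LGALS1 and the cytoplasmic actins had the 3 largest rises among called genes with a symbol, a mean of at least 10 RPKM in blastocysts and no overlap of libraries. ACTB, cytoplasmic beta-actin (chromosome 25, 39659510 to 39664793), went from 5.70, 10.02 and 4.03 RPKM to 347, 613 and 205 RPKM, a log2 fold change of 5.62 (SE 0.38, adjusted p = 8.31e-10). ACTG1, cytoplasmic gamma-actin, went from 5.75, 7.96 and 7.71 RPKM to 336, 510 and 330 RPKM, a log2 fold change of 5.57. Blastocyst B was highest for both actins. Mean ACTB in morulae was 6.43 RPKM, so ACTB was as low there as at the 16-cell stage. LGALS1, the lectin galectin-1, went from 2.34, 4.12 and 1.81 RPKM to 202, 107 and 274 RPKM, a log2 fold change of 5.64, and had reached a mean of 40.5 RPKM in morulae. MYL6B, a myosin light chain, rose by 3.73, from 3.03, 2.56 and 2.48 RPKM to 41.5, 25.2 and 103 RPKM.

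Of 22 keratin, actin, tubulin and related genes tested, 8 rose and 7 fell, with a median of 0.05. Under nuclear scaling 9 rose and 5 fell with a median of 0.53, and under quantile normalization 8 rose and 5 fell with a median of 0.61. The alpha-tubulins parted. TUBA1B rose by 1.90, from 19.5, 20.1 and 12.8 RPKM to 49.5, 48.8 and 121 RPKM, and TUBA1A fell by 3.41, from 117, 122 and 29.1 RPKM to 4.31, 4.996 and 10.5 RPKM. TUBA4A fell by 3.40 and had 0, 0 and 6 reads in blastocysts. VIM, the intermediate filament protein of mesenchyme and many cultured cells, fell by 1.63, from 2.08, 5.32 and 0.865 RPKM to 0.0248, 0.0610 and 0.121 RPKM. Actins, tubulins, histones and ribosomal proteins have near-identical gene copies, and how reads matching several copies were counted is not given in the sources used here, so values of single members are uncertain.

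Other gained transcripts encode transporters and secreted enzymes. SLC1A1, a glutamate and aspartate transporter, went from 0.0126, 0.0176 and 0.0152 RPKM to 3.82, 2.76 and 3.44 RPKM, or from 10, 23 and 17 reads to 13170, 11986 and 9242 reads. Its log2 fold change was 2.09 (SE 0.14), and on the log2(RPM + 1) scale 7.52, the difference coming with the added 1 at such low RPKM. SLC35G1, a member of a transporter family, rose by 4.17, from 0.0395, 0.256 and 0.0850 RPKM to 23.4, 15.1 and 20.2 RPKM. PLAU, the urokinase plasminogen activator, rose by 3.14, from 0.0876, 0.0665 and 0.0381 RPKM to 17.3, 2.11 and 13.5 RPKM, with blastocyst B below the other two. Of 3 amino acid transporters tested on the RPKM scale 2 rose and 1 fell, as under nuclear scaling and under quantile normalization. Both that rose, SLC1A1 and SLC7A7, were under 1 RPKM in every library outside the blastocyst stage, and without blastocyst B neither was tested. SLC7A3, which fell by 1.32 and had 1, 2 and 0 reads in blastocysts, was at -0.78 without 16-cell C, short of a call. On the log2(RPM + 1) scale 4 of 15 rose and 6 fell.

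Genes for the respiratory chain rose in most members tested. Of 37 subunits encoded in the nucleus, 30 rose and none fell, with a median of 1.41 against -0.45 for all genes; 21 averaged 1 RPKM or more at the 16-cell stage and all 37 did so in blastocysts. Of the 37, 5 needed their blastocyst libraries to be tested, so the wider fit is also given. On the log2(RPM + 1) scale, where none of 42 needed them, 35 rose and 1, COX7A2L, fell. With the library size taken from listed nuclear genes alone, 34 of 37 rose, as under quantile normalization. NDUFS5, a complex I subunit, went from 0.216, 0.770 and 1.33 RPKM to 43.7, 29.2 and 65.1 RPKM, a log2 fold change of 4.71 (SE 0.38, adjusted p = 8.78e-09). UQCRQ, of complex III, rose by 3.97, from 1.95, 3.39 and 3.87 RPKM to 101, 29.8 and 76.7 RPKM, and NDUFB10, of complex I, by 3.47. ATP5IF1, an inhibitor of the ATP synthase that lies outside the list of subunits, rose by 3.40, from 1.20, 0.913 and 2.48 RPKM to 32.0, 16.7 and 28.6 RPKM. For NDUFS5, UQCRQ, NDUFB10 and ATP5IF1 no library of one stage overlapped with the other stage, and blastocyst B was the lowest blastocyst library for each.

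The 13 protein genes of the mitochondrial genome had a median of 1.48, with 6 called higher and none lower. COX2, a core subunit of complex IV, went from 802.8, 567.9 and 281 RPKM to 8430, 13952 and 7586 RPKM, a log2 fold change of 4.25 (SE 0.58, adjusted p = 5.83e-06). COX1 of the same complex rose by 2.12 (adjusted p = 0.0207) and COX3 by 1.72 (adjusted p = 0.0227). These genes are the same reads that make up the mitochondrial share of the reads in listed genes. Both calls were lost without 16-cell C, with a value of 1.55 for COX1 and 1.57 for COX3, and without blastocyst B, with 1.86 and 1.53. ND2, of complex I, stood at 4805, 3632 and 3589 RPKM and then at 10503, 9199 and 18714 RPKM; its log2 fold change of 1.62 had an adjusted p of 0.0542 and was not called, although the libraries did not overlap. Counts of called mitochondrial genes were 3 without 16-cell C and morula C, 4 without blastocyst B, 11 under nuclear scaling and 4 under quantile normalization, with a median of 0.51 under the last.

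Of 30 cytosolic ribosomal protein genes tested, 21 rose and none fell, with a median of 1.34; 28 rose under nuclear scaling and 24 under quantile normalization, with none lower, and all 30 averaged 1 RPKM or more at both stages. RPLP2, of the ribosomal stalk, went from 10.5, 14.1 and 9.39 RPKM to 98.1, 65.5 and 90.7 RPKM, a log2 fold change of 2.80 (SE 0.35, adjusted p = 2.25e-06). In morulae RPLP2 averaged 75.1 RPKM, and in 8-cell embryos 1.57 RPKM. RPS13, by contrast, was kept, at 101, 77.2 and 94.5 RPKM and then 107, 80.8 and 141 RPKM, with a 95% interval of -0.46 to 0.94 for its log2 fold change. RPL26 was likewise not called at 0.34, although under nuclear scaling it reached 1.04 and was.

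Of 43 nucleolar and ribosome assembly factors 20 fell and 1 rose, with a median of -0.85; 13 fell and 1 rose under nuclear scaling and 7 fell and 1 rose under quantile normalization, where 7 of 43 (16.3%) is near the 17.4% of all genes. Without blastocyst B 13 fell. POLR1D, a subunit shared by RNA polymerases I and III, stood at 160, 119 and 63.5 RPKM and then at 19.0, 5.62 and 18.7 RPKM, a log2 fold change of -2.97 (SE 0.44, adjusted p = 1.45e-05). NOP56, a core protein of box C/D nucleolar particles, was the riser, at 1.05, though its libraries overlapped between 16-cell B (15.3 RPKM) and blastocyst A (14.4 RPKM) and the call was lost without 16-cell C (0.66) or blastocyst C (0.72). NOP58, its partner in the same particle, fell by 1.17, with 11.2, 12.3 and 11.7 RPKM and then 3.10, 2.22 and 12.6 RPKM, and blastocyst C stayed at the 16-cell level. The call of NOP58 was lost under nuclear scaling (-0.62) and quantile normalization (-0.43) and without blastocyst A (-0.94) or B (-0.77).

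Translation factors split. Of 27 tested 6 rose and 11 fell, with a median of -0.75. Under nuclear scaling 8 of 28 rose and 6 fell (21.4%), and under quantile normalization 8 of 27 rose and 4 fell (14.8%). These shares of falls were near those of all genes, and the medians were still negative at -0.40 and -0.18. EEF1B2, an elongation factor subunit, rose by 4.68, from 1.24, 1.32 and 7.37 RPKM to 62.5, 80.8 and 139 RPKM, and EEF1A1, the elongation factor that delivers aminoacyl-tRNA, rose by 2.27. PABPC1, the cytoplasmic poly(A)-binding protein to which PAIP1 binds, rose by 4.21, from 2.27, 4.88 and 3.26 RPKM to 66.0, 117 and 64.7 RPKM. EIF1, which helps to select the start codon, fell by 3.96, from 1285, 527 and 381 RPKM to 49.3, 15.9 and 79.8 RPKM. EEF1D, another elongation factor subunit, rose by 2.07, and the falls included the initiation factors EIF1B (-2.54), EIF5 (-1.69) and EIF4A2 (-1.51), the last short of a call under nuclear scaling (-0.86) and quantile normalization (-0.76).

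Of 42 spliceosome genes tested 19 fell (45.2%) and 1 rose (2.38%), with a median of -0.75. Under nuclear scaling 13 of 41 fell and 4 rose, under quantile normalization 10 and 5, and without blastocyst B 15 and 2. SNRNP35, a protein of the minor spliceosome, fell by 3.93, from 43.1, 35.2 and 15.01 RPKM to 0.968, 0.795 and 1.05 RPKM. SRSF1, a splicing regulator, fell by 2.91, from 20.04, 7.76 and 5.59 RPKM to 0.560, 0.406 and 0.306 RPKM. LSM3 was the riser at 1.16, and the call rested on blastocyst A (11.3 RPKM, against 2.40 and 3.95 in B and C): without it the value was 0.63. Of 32 RNA polymerase II and general transcription genes 10 fell (31.2%), a share near the 29.0% of all genes, and none rose (7 and 1 of 34 under nuclear scaling, 3 and 0 of 32, or 9.38% lower, under quantile normalization), with the Mediator subunits MED31 (-2.77) and MED6 (-2.45) the furthest.

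Of 21 histone genes tested, 15 fell and none rose, with a median of -1.49; 13 fell and 1 rose under nuclear scaling and 9 fell and 1 rose under quantile normalization. HIST1H1A, a linker histone, went from 78.4, 56.1 and 150 RPKM to 1.66, 2.33 and 1.52 RPKM, a log2 fold change of -4.97 (SE 0.75, adjusted p = 1.82e-05). HIST1H2BA, a testis-type and oocyte-type H2B, fell by 4.34, from 19.8, 22.5 and 58.2 RPKM to 0.758, 0.284 and 0.527 RPKM. H1FOO, the linker histone of the oocyte, fell by 2.60 and had 0, 5 and 11 reads in blastocysts. In HIST1H1A, HIST1H2BA and H1FOO 16-cell C was the highest library. Without 16-cell C and morula C, 11 of 21 histone genes fell and the median was -1.58. H2AFY, the variant macroH2A1, was too low for the RPKM test and rose by 3.58 on the log2(RPM + 1) scale, from 0.410, 0.981 and 1.40 RPM to 26.6, 22.4 and 16.8 RPM.

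Of 5 DNA methylation genes tested on the RPKM scale 2 fell, DNMT1 and GADD45A (-1.32), and none rose. Under nuclear scaling and quantile normalization 1 fell, as GADD45A was then short of a call (-0.71 and -0.47). On the log2(RPM + 1) scale 3 of 16 rose and 4 fell. Of the 15 that did not need their blastocyst libraries to be tested there, 2 rose and 4 fell. Among the methyltransferases, DNMT1 fell while DNMT3B and DNMT3A rose. DNMT1, which maintains methylation after replication, stood at 1.40, 1.92 and 5.70 RPKM and then at 0.0593, 0.0280 and 0.0384 RPKM, a log2 fold change of -1.79 (SE 0.51, adjusted p = 0.00525). DNMT3B, which sets new methylation, rose by 4.09 on the log2(RPM + 1) scale (limma adjusted p = 2.57e-06), from 1.11, 0.503 and 2.75 RPM to 30.4, 122 and 14.2 RPM, with blastocyst B the highest. DNMT3A, its relative, rose by 3.14 on that scale, from 0.860, 1.68 and 3.72 RPM to 22.02, 17.4 and 36.9 RPM. TDG, a glycosylase that removes oxidised methylcytosine, had no read in any 16-cell library and 143, 94 and 123 reads in blastocysts. UHRF1, which guides DNMT1 to replicated DNA, fell by 2.57 on the log2(RPM + 1) scale, from 8.46, 9.88 and 33.5 RPM to 1.02, 2.83 and 1.19 RPM, and its -0.47 on the RPKM scale was not called.

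Of 18 histone modifiers and chromatin remodelers tested on the RPKM scale 4 fell and 1 rose (4 and 1 under nuclear scaling, 3 and 2 under quantile normalization). Among 66 tested as log2(RPM + 1), 25 fell (37.9%) and 7 rose (10.6%), near the 36.4% and 14.4% of all genes on that scale. The paired deacetylases differed: HDAC2 fell by 1.87, from 8.05, 8.57 and 4.90 RPKM to 0.968, 1.23 and 1.41 RPKM, and HDAC1 rose by 1.0, from 0.551, 1.38 and 0.618 RPKM to 2.70, 1.78 and 3.66 RPKM. HDAC1 lay on the size limit, and it fell below it on leaving out 16-cell A or C or blastocyst A or C (0.82 to 0.99). CBX3, the heterochromatin protein HP1-gamma, fell by 2.70.

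Cell division genes fell in number. Of 51 mitosis genes tested 31 fell and 1 rose, with a median of -1.26. Under nuclear scaling 23 of 47 fell and under quantile normalization 19 of 51 fell, with 1 rise each. UBE2C, the ubiquitin-conjugating enzyme of the anaphase-promoting complex, went from 294, 161 and 125 RPKM to 7.46, 1.04 and 23.3 RPKM, a log2 fold change of -4.60 (SE 0.61, adjusted p = 4.41e-06). CDK1, the mitotic kinase, fell by 3.40, from 75.1, 44.4 and 20.4 RPKM to 2.64, 0.694 and 9.15 RPKM. CKS2, a CDK1 partner, fell by 4.37, and AURKA, the spindle-pole kinase, by 3.81. Blastocyst B was the lowest and blastocyst C the highest of its stage for UBE2C, CDK1 and AURKA. Without blastocyst B 27 of 51 fell. SPC24, a kinetochore protein, rose by 2.25, from 0.507, 0.378 and 0.491 RPKM to 4.30, 3.76 and 12.3 RPKM, while its partners SPC25 (-2.25) and NDC80 (-2.79) fell.

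Among 33 replication and S phase genes 11 fell and none rose, with a median of -0.50, close to that of all genes. Under nuclear scaling 9 of 31 fell and 3 rose, under quantile normalization 7 fell and 4 rose, and without blastocyst B 7 fell and 1 rose. PCNA, the sliding clamp of DNA polymerase, went from 656, 351 and 541 RPKM to 15.9, 4.99 and 97.5 RPKM, a log2 fold change of -4.54 (SE 0.69, adjusted p = 2.08e-05). PCNA differed widely within the blastocysts, with B the lowest and C the highest. GMNN, an inhibitor of re-replication, fell by 3.12 and CCNE1, the cyclin of S phase entry, by 2.53; GMNN too was highest in blastocyst C, at 20.4 RPKM against 4.94 and 1.28.

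**Figure D5:**
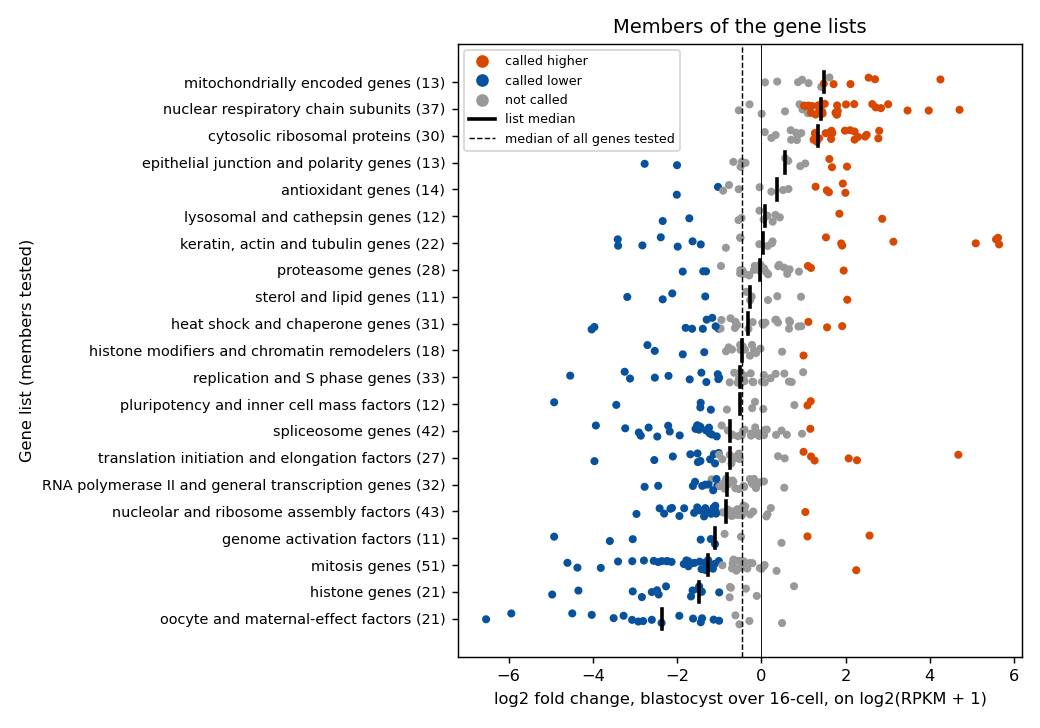
Log2 fold change, blastocyst over 16-cell on log2(RPKM + 1), of each tested member of 21 gene lists (members tested in brackets); points are genes, coloured by call, black bars are list medians and the dashed line is the median of all genes tested, -0.45. Members of the respiratory chain and ribosomal lists lie to the right with medians of 1.34 to 1.48, and oocyte, histone and mitosis genes lie to the left with medians of -2.37, -1.49 and -1.26.

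Kept transcripts with a symbol and the highest means over the 6 libraries were RPS13, HYPK, TXNDC17, PSMA7, CALM3, FKBP3, ATXN7L3B and PSMC6. HYPK, a chaperone-like protein of the N-terminal acetyltransferase complex, stood at 68.3, 71.2 and 43.5 RPKM and then at 86.7, 35.0 and 71.2 RPKM, a log2 fold change of 0.01 (95% interval -0.86 to 0.88). PSMA7, of the proteasome core, stood at 12.6, 17.4 and 15.2 RPKM and then at 14.5, 10.5 and 24.1 RPKM (95% interval -0.65 to 0.75). PSMC6, an ATPase of the proteasome cap, stood at 4.65, 5.36 and 7.12 RPKM and then at 4.62, 2.49 and 12.6 RPKM. In HYPK, PSMA7 and PSMC6 the libraries of the stages overlapped and blastocyst B was the lowest of the 6. Of 28 proteasome genes 3 rose and 3 fell, with a median of -0.03, and 3 of the 28 needed their blastocyst libraries to be tested. The median turned to 0.46 under nuclear scaling, where 7 of 27 rose and 2 fell. Under quantile normalization it was 0.58, and 7 rose and 1 fell. The class of kept transcripts itself moved with the scaling, to 352 under nuclear scaling, and with the presence limit, to 494 at 0.5 RPKM and 90 at 2 RPKM.

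Metabolic and stress groups were small on the RPKM scale. Of 14 antioxidant genes tested 5 rose and 2 fell, with a median of 0.38. Under nuclear scaling 7 rose and 2 fell (median 0.81), under quantile normalization 7 and 1 (median 0.89), and without blastocyst B 6 rose and none fell. FTH1, the ferritin heavy chain, rose by 2.00, from 108, 168 and 102 RPKM to 533, 302 and 739 RPKM, and GPX1, a glutathione peroxidase, rose by 1.94. Of 11 sterol and lipid genes 1 rose and 4 fell (3 and 4 of 12 under nuclear scaling, 2 and 3 under quantile normalization). As log2(RPM + 1), 9 of 31 rose and 7 fell, and of the 26 that did not need their blastocyst libraries to be tested 5 rose. HMGCS1, of sterol synthesis, stood at 7.09, 5.74 and 19.2 RPKM and then at 0.0213 and 0.427 RPKM in blastocysts A and B, with no read in C, a log2 fold change of -3.18 (SE 0.59, adjusted p = 0.000152), with blastocyst B the highest of its stage. FASN, the fatty acid synthase, rose by 3.12 on the log2(RPM + 1) scale and the elongase ELOVL6 by 3.42, the latter from 15.3, 17.6 and 13.3 RPM to 202, 222 and 116 RPM. Of 4 glycolysis genes tested 1 rose, TALDO1 of the pentose phosphate branch (1.41), and 2 rose under nuclear scaling, under quantile normalization and without blastocyst B. Of 6 apoptosis genes 1 rose and 2 fell, while 3 of 8 rose and 2 fell under nuclear scaling, 2 of 6 rose and 1 fell under quantile normalization, and 3 rose and 2 fell without blastocyst B. Of 12 lysosomal genes 2 rose and 2 fell (3 and 2 under both scalings), and the 1 interferon response gene tested was not called. To be tested, 2 of the 12 lysosomal, 1 of the 6 apoptosis and 1 of the 4 glycolysis genes needed their blastocyst libraries.

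Markers of other cells that could be carried along were also measured. Summed RPKM over the members found was 1.46 to 3.09 in 16-cell and 1.14 to 5.82 in blastocyst libraries for 12 cumulus and granulosa markers, 0.584 to 1.77 and 0.0722 to 0.589 for 6 oviduct and uterine markers, and 0.186 to 2.81 and 0.132 to 0.411 for 10 leukocyte markers. It was 0.0403 to 0.289 and 0.0314 to 0.105 for 3 blood markers, 0.853 to 2.36 and 0.0400 to 0.0782 for 4 sperm markers, and 1.44 to 3.503 and 0.131 to 0.158 for 7 fibroblast markers. None of these markers was at 0 in all 6 libraries. The fibroblast marker DCN had 43.7, 19.7 and 79.5 RPM at the 16-cell stage and 2.45, 0.263 and 3.04 RPM in blastocysts, and on the RPKM scale it fell by 1.09. The sperm marker ACRV1 fell by 1.13 on that scale, from 302, 173 and 565 reads to 0, 1 and 0 reads. Neither was called without 16-cell C (-0.82 for DCN and -0.87 for ACRV1), and DCN was not called under quantile normalization (-0.85). Both were already measured in oocytes, at means of 3.48 RPKM for DCN and 1.18 RPKM for ACRV1. Their 16-cell means were 1.36 and 1.29 RPKM. No marker rose on the RPKM scale, but 1 cumulus marker did under nuclear scaling. PTGS2, a cyclooxygenase listed with the cumulus markers, rose on the log2(RPM + 1) scale, from 0, 1 and 0 reads to 1506, 224 and 508 reads, while STAR (-2.03) and TNFAIP6 (-4.35) of the same list fell. The part of such cells in the results above was not tested.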

How the data were processed

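The authors deposited 1 table of RPKM values for 19040 genes and 21 libraries, with gene symbols or Ensembl identifiers, biotypes and coordinates as printed here. Per the submitters' processing notes the tools were Partek, STAR 2.5.3a and FastQC, listed without roles. The build of the genome, the strandedness and how reads were counted are not given in the sources here. After subtraction of the offset of 0.01 and multiplication by the gene span, 95.1 to 96.7% of low values (up to 10 reads) were, within 0.05, integer multiples of the value of 1 read, and reads and RPM were taken from this.

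Samples were grouped by title. Genes at 1 RPKM or more in 3 or more libraries were fitted on log2(RPKM + 1) with limma 3.58.1 (trend, robust, two-sided) in R 4.3.3, in 1 model of 7 stages and 21 libraries. The fit was tested on simulated data. The genes named came first from called genes with a symbol, without overlap of libraries and with a mean of 10 RPKM in the higher stage. The 15 rises and 15 falls of largest fold change were taken from them. Up to 2 rises and 2 falls per list, 60 tracked genes, and the 8 kept genes with a symbol and the highest mean RPKM were added. Other genes are named as examples of a list's counts after their values were seen. Some genes this rule names are not reported here. Of 1480 symbols on 35 lists (6 of markers), 1053 were found and 546 tested. The comparison, members and lists were chosen with earlier results of these data known. Alternatives were other pseudocounts (0.1 and 5), filters, scalings and fits, RPM values, and libraries left out. Python 3.11.15 (pandas 2.3.3, numpy 2.4.6, matplotlib 3.10.9) made the tables and figures.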

Additional observations from a re-analysis of the deposited data

How the results depend on the processing

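Against 503 genes higher and 1232 lower, the higher calls numbered 250 with a pseudocount of 5, 304 with a filter of 5 RPKM, 850 under quantile normalization, 844 under median-ratio scaling, 1495 on RPM without the gene span and 910 under nuclear scaling; the lower calls numbered 2118 with a pseudocount of 0.1, 510 with 5, 742 under quantile normalization and 3779 on RPM. Fewer genes were tested with the stricter filter (1868) and more on RPM (10384); otherwise the cause was not tested. Leaving out each library in turn gave 367 to 581 higher and 1045 to 1385 lower. The 367 and 1385 came without blastocyst C, and the 581 and 1045 without blastocyst B. With the letter as a replicate block there were 506 higher and 1237 lower, and no call among the named genes changed; the letters were not treated as pairs, since deviations of same-letter libraries correlated at 0.07 (A), -0.09 (B) and -0.13 (C) and, of the 16-cell libraries, A alone correlated best with its own letter. Gained transcripts numbered 427 under nuclear scaling, kept ones 494 with presence at 0.5 RPKM, 90 at 2 RPKM and 352 under nuclear scaling, and activated genes called higher 483 under nuclear scaling. Genes with a maternal pattern called higher numbered 19 without 16-cell C and morula C and 15 under nuclear scaling. CTSV, a cathepsin, was not called at -0.04; leaving out each library gave -1.10 to 1.41, the latter a call (limma adjusted p = 0.0131) without blastocyst B. Lost transcripts numbered 512 to 875, and without blastocyst B 589 were lost and 210 gained. Nuclear scaling and the fits of classes, fates and lists without blastocyst B were chosen after seeing the data. Classes, fates and lists were not counted without blastocyst C. The estimation of array weights stopped before it converged. Depth limits genes under 3 reads per library.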
